A study of Mus musculus with 20 samples.

Results

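The genes described are a set of 37 named for sterol synthesis, uptake, efflux and oxysterol formation, followed across mouse motor and sensory cortex with and without experimental autoimmune encephalomyelitis (EAE), an induced autoimmune inflammation of the central nervous system. A member was measured where at least 1 probe set of the array was annotated to its symbol and to no other, and the brightest such probe set stood for the gene. By that rule 34 of the 37 members were measured, out of 18194 genes in all. Acat2, Soat1 and Nr1h2 had no such probe set. The samples were 20 Affymetrix arrays of total RNA, 1 from the motor and 1 from the sensory cortex of each of 10 mice. All 10 were female C57Bl6 mice with an age label of 8 to 12 weeks. The 6 EAE mice were injected at 8 to 12 weeks of age subcutaneously with MOG35-55 peptide, 100 µg in the flanks plus 50 µg where the tail begins, and were given 400 ng of pertussis toxin on days 0 and 3. They were sampled at a label of EAE day 18 to 21 (day 21 in the protocol), with average grades of 2.5, 3, 2.75, 3, 3.5 and 3.5 for mice 1 to 6. The 4 healthy mice were cage mates of the EAE mice for which no injection is described, so a comparison of EAE with healthy also compares injected with uninjected mice. Mice 1 to 3 with EAE and healthy mice 1 and 2 formed cohort 1, and the others cohort 2. The regions were dissected from 1 mm coronal slices by hand, and each sample holds all the cell types of the tissue.

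Cholesterol in the brain is made locally, because the lipoproteins of the blood do not cross the intact blood-brain barrier. Neurons and glia build it from acetyl-CoA through mevalonate, farnesyl diphosphate and squalene, and oligodendrocytes place much of it in myelin. When sterol is scarce, SCAP escorts the transcription factors SREBP (from Srebf1 and Srebf2) out of the endoplasmic reticulum, where the INSIG proteins otherwise hold them, and the synthesis genes are transcribed. When sterol is plentiful, oxysterols activate the LXR receptors, which induce the exporters Abca1 and Abcg1. The oxysterol enzymes differ by cell: CYP46A1 works in neurons, and CH25H is an inducible enzyme of immune and vascular cells.

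SREBP proteins bind sterol regulatory elements close to NF-Y, a factor that binds CCAAT boxes, so the letters of both were looked for in the RefSeq promoter windows (GRCm38.p6), which run from 250 bases before to 50 bases after a gene's start. A window was listed for 27 of the 34 measured members and 14 of the 17 measured synthesis genes. CCAAT, read on both strands, stood in a window of 14 of those 14 synthesis genes and 23 of the 27 members, against 41.1% of all 27025 genes with a window. The sterol element letters TCACNCCAC, on either strand, stood in 1 of the 27, Hmgcs1, and in 1.44% of all genes. The E-box CACGTG, which SREBP proteins also bind, stood in 6 of the 27 members (Hsd17b7, Sc5d, Dhcr7, Insig1, Scap and Abca1) and in 8.09% of all genes. The stretches from 150 bases before to 1 base before the start are shown for Hmgcs1, Mvd and Dhcr7, the synthesis genes with a window that were lower in EAE by the test given later. They lie at chr13:119690201-119690350 on the plus strand for Hmgcs1, chr8:122443423-122443572 on the minus strand for Mvd and chr7:143830064-143830213 on the plus strand for Dhcr7 (1 of its 3 windows), each read 5′ to 3′. For Dhcr7 the window with the most CCAAT boxes was taken, and it is the only 1 of the 3 that holds any. Capitals mark the sterol element letters in Hmgcs1 and, in all 3 genes, CCAAT or its other-strand form ATTGG.
Hmgcs1: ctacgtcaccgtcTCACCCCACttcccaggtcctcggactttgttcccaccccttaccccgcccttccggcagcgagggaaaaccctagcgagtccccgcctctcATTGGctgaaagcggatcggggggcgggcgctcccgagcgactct
Mvd: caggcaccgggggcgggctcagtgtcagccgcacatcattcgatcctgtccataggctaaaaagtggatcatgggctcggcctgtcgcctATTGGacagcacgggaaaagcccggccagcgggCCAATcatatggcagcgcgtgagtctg
Dhcr7: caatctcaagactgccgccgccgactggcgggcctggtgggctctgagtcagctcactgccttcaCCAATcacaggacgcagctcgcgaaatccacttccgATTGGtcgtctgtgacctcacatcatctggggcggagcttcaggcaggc
The Hmgcs1 stretch held 1 match to the sterol element, from base -137 to -129, and 1 CCAAT box, from -45 to -41. The Mvd stretch held 2 CCAAT boxes, from -60 to -56 and from -27 to -23, and the Dhcr7 stretch 2, from -85 to -81 and from -49 to -45. These matches are letters in a sequence: binding was not measured.

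Values are log2 intensities, so a difference of 1 is a doubling, and levels are not set against each other between genes because each probe set has its own brightness. Array medians lay between 8.22 and 8.32. The sensory array of EAE mouse 3 stood farthest from its group (root mean square deviation 0.295, against at most 0.222 on the other 19 arrays). Its deviations from its group had a correlation of -0.03 with those of the same mouse's motor array, against 0.16 to 0.59 in the other 9 mice. Where leaving out this mouse changes the call of a member, that is given beside the member. The motor array of healthy mouse 4 and the sensory array of healthy mouse 1 were processed on a second chip day that holds no EAE array. Excitatory neuron markers averaged 12.1 to 12.4 on every array (5 genes), in samples labelled cortex. Markers of other cells differed between EAE and healthy: with both regions averaged, 6 of 10 oligodendrocyte markers, 6 of 9 endothelial markers and 5 of 8 microglial markers were lower, and 1 microglial marker (C1qb, at 0.48), 4 of 6 neutrophil and monocyte markers and 2 of 5 T cell markers were higher. Over all genes 5.64% were called lower and 2.23% higher. Of 5 oligodendrocyte precursor markers 1 was lower (Olig1). Of 9 astrocyte markers Gjb6 was higher and S100b lower, and of 6 inhibitory neuron markers Vip was higher and Sst lower. On this scale a probe set always has a value, so no marker can be read as absent. In such tissue samples fewer cells of a type and less RNA per cell cannot be told apart.

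The question of the study was how expression in each cortical region differs between EAE and healthy mice. A gene was called where limma's moderated test, fitted over all 18194 genes with cohort as a covariate, gave a Benjamini-Hochberg adjusted p under 0.05. In motor cortex 1 of the 34 sterol genes was called, Hmgcs1 (lower), where 2.25% of all genes were called and 1.74% were called lower. In sensory cortex 2 were called, Dhcr7 (lower) and Ch25h (higher), where 2.41% of all genes were called, 1.51% lower and 0.901% higher. With the 2 arrays of each mouse averaged, 8 were called, which is 23.5% of the members against 7.87% of all genes. Of these 8, Hmgcs1, Mvd, Sqle, Dhcr7 and Srebf2 were lower in EAE (5.64% of all genes were called lower) and Fdft1, Srebf1 and Ch25h were higher (2.23% were called higher). The count of 8 moved with single mice: it was 0 without healthy mouse 3, 2 without healthy mouse 2 or 4, 3 without healthy mouse 1, 4 without EAE mouse 5 and 5 without EAE mouse 2 or 6. It was 7 without EAE mouse 3 or 4, each time without Srebf2, and rose to 10 without EAE mouse 1, where Srebf1 and Srebf2 were not called and Idi1, Fdps, Cyp51 and Nsdhl were. With arrays centred on their medians no member was called in either region alone, and the average lost Mvd and Srebf2. Without the cohort covariate the average lost Mvd, Srebf1 and Srebf2, and sensory cortex lost Ch25h. After quantile normalization Mvd, Dhcr7 and Srebf2 were not called in the average and Abca1 was called higher, in motor cortex Srebf1 was called higher beside Hmgcs1, and in sensory cortex Abca1 (higher) was called in place of Dhcr7 and Ch25h. All genes called lower and higher then numbered 227 and 120 in motor cortex (316 and 94 on the deposited scale), 182 and 193 in sensory cortex (274 and 164), and 603 and 450 in the average (1026 and 405).

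**Figure D1:**
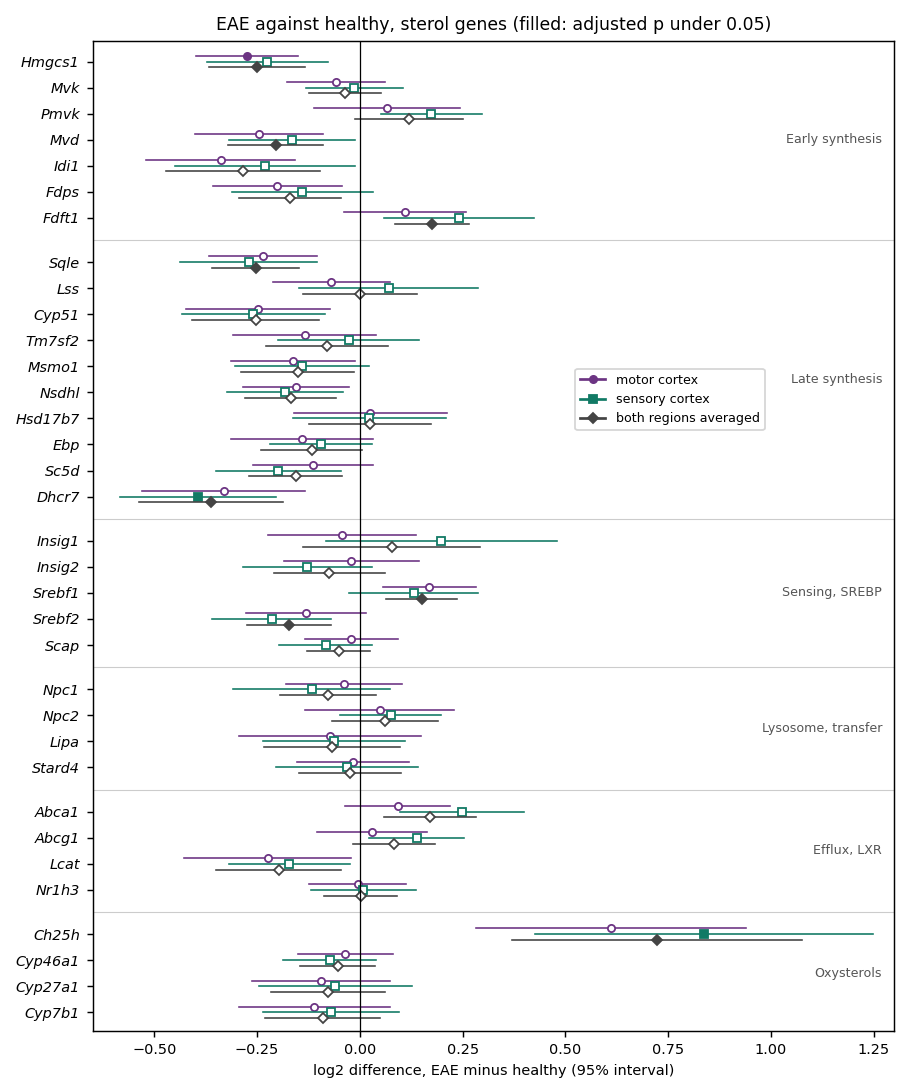
Log2 difference (EAE minus healthy, x axis) of the 34 measured sterol genes (y axis, grouped by role) in motor cortex, sensory cortex and the average of both, from 6 EAE and 4 healthy mice. Points are limma estimates, lines their 95% intervals, and filled points have an adjusted p under 0.05: 1 in motor cortex, 2 in sensory cortex and 8 in the average, with Ch25h the farthest from 0.

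Most genes of the synthesis pathway had an estimate below 0 in EAE. In motor cortex 14 of the 17 synthesis genes did (53.1% of all genes did), and their median log2 difference was -0.15 against -0.01 over all genes. In sensory cortex 13 of 17 did (49.7% of all genes), with a median of -0.14 against 0.00. For both regions averaged 13 of 17 did (49.9% of all genes), with a median of -0.16. At an unadjusted p under 0.05, 9 of the 17 were lower in motor cortex (10.3% of all genes), 8 in sensory cortex (11.7%) and 10 in the average (15.8%). With the arrays quantile-normalized these medians were -0.11, -0.11 and -0.12, and with arrays centred on their medians -0.14, -0.12 and -0.14. Beside these values the 10 oligodendrocyte markers had median differences of -0.39 in motor and -0.37 in sensory cortex. Their mean level was 11.12 to 11.37 in the motor cortex of EAE mice and 11.43 to 11.86 in that of healthy mice, with no overlap, and 11.08 to 11.65 against 11.55 to 11.64 in sensory cortex, where 1 EAE mouse (mouse 6) lay above all 4 healthy mice. What part they have in the levels of the sterol genes was not tested.

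In the early part of the pathway, from acetyl-CoA to squalene, Hmgcs1 and Mvd were lower, Fdft1 was higher, and the other 4 measured genes were not called. Hmgcs1, which makes HMG-CoA early in the pathway, read 13.76, 13.69, 13.81 and 13.74 in the motor cortex of healthy mice 1 to 4, and from 13.40 (median 13.45) to 13.64 in the 6 EAE mice. In the sensory region it read 13.59, 13.49, 13.56 and 13.58 in the healthy mice and from 13.19 (median 13.34) to 13.47 in the EAE mice. In each region every EAE mouse lay below every healthy mouse, and Hmgcs1 was the single measured member with that separation in both (1.49% of all genes had it). The motor difference was -0.27 ± 0.06 (SE, limma adjusted p = 0.028), or 82.7% of the healthy level, and the sensory difference was -0.22 ± 0.07 (limma adjusted p = 0.11). Averaged over regions it was -0.25 ± 0.05 (limma adjusted p = 0.019). The motor call was lost without EAE mouse 2, 3 or 6 or any of the 4 healthy mice (limma adjusted p 0.053 to 0.12), with the difference between -0.30 and -0.26. The averaged call was lost without healthy mouse 1, 3 or 4 (limma adjusted p 0.060 to 0.066). Hmgcs1 is the gene whose promoter stretch above carries both the sterol element letters and a CCAAT box. Its other 4 probe sets also had averaged estimates below 0, and 1 of them had an unadjusted p under 0.05. Under the mean of all 5 probe sets the gene was not called.

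Mvd, the decarboxylase that yields isopentenyl diphosphate, read 9.84, 9.74, 9.79 and 9.76 in healthy motor cortex and from 9.32 (median 9.51) to 9.80 in EAE. Sensory cortex gave 9.76, 9.65, 9.90 and 9.77 in healthy mice and from 9.45 (median 9.64) to 9.74 in EAE. EAE mouse 4 lay among the healthy mice in motor cortex, while the other 5 EAE mice lay below all 4. The averaged difference was -0.20 ± 0.05 (SE, limma adjusted p = 0.038), and it was lost without EAE mouse 2, 5 or 6 or any healthy mouse (limma adjusted p 0.051 to 0.11). The gene's other probe set gave -0.24. Fdft1, squalene synthase, went the other way. It read 12.35, 12.36, 12.37 and 12.18 in healthy motor cortex and from 12.29 (median 12.43) to 12.54 in EAE. Sensory values were 12.15, 11.90, 12.08 and 12.20 in healthy mice and from 12.13 (median 12.38) to 12.43 in EAE. The groups overlapped in both regions. The averaged difference was 0.18 ± 0.04 (SE, limma adjusted p = 0.029), with 0.17, 0.15 and 0.15 on the gene's other 3 probe sets, and the call was lost without EAE mouse 2 or 5 or healthy mouse 2, 3 or 4 (limma adjusted p 0.051 to 0.10). On the mean of all its probe sets Fdft1 was at 0.16 and not called (limma adjusted p = 0.077).

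Idi1, the isomerase that follows Mvd, had a larger difference than Hmgcs1 but did not pass the test. It read 11.52, 11.51, 11.47 and 11.35 in healthy motor cortex and from 10.96 (median 11.09) to 11.35 in EAE, with no overlap. In motor cortex 4 of the 34 members had all EAE mice below all healthy mice (4.19% of all genes did). The Idi1 difference was -0.34 ± 0.08 in motor cortex (SE, limma adjusted p = 0.057) and -0.28 ± 0.08 in the average (limma adjusted p = 0.066). Its other probe set gave -0.36 in motor cortex, -0.01 in sensory cortex and -0.19 in the average (unadjusted p of 0.055, 0.95 and 0.21 by limma). Fdps, which makes farnesyl diphosphate, had an averaged difference of -0.17 ± 0.06 (SE, limma adjusted p = 0.087). Mvk and Pmvk, the kinases that act on mevalonate, were not called: Mvk was at -0.04 (95% interval -0.12 to 0.05) and Pmvk at 0.12 (-0.01 to 0.25). Without EAE mouse 3 Pmvk was called higher in sensory cortex, at 0.21 (limma adjusted p = 0.044), against 0.17 with it (limma adjusted p = 0.14).

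**Figure D2:**
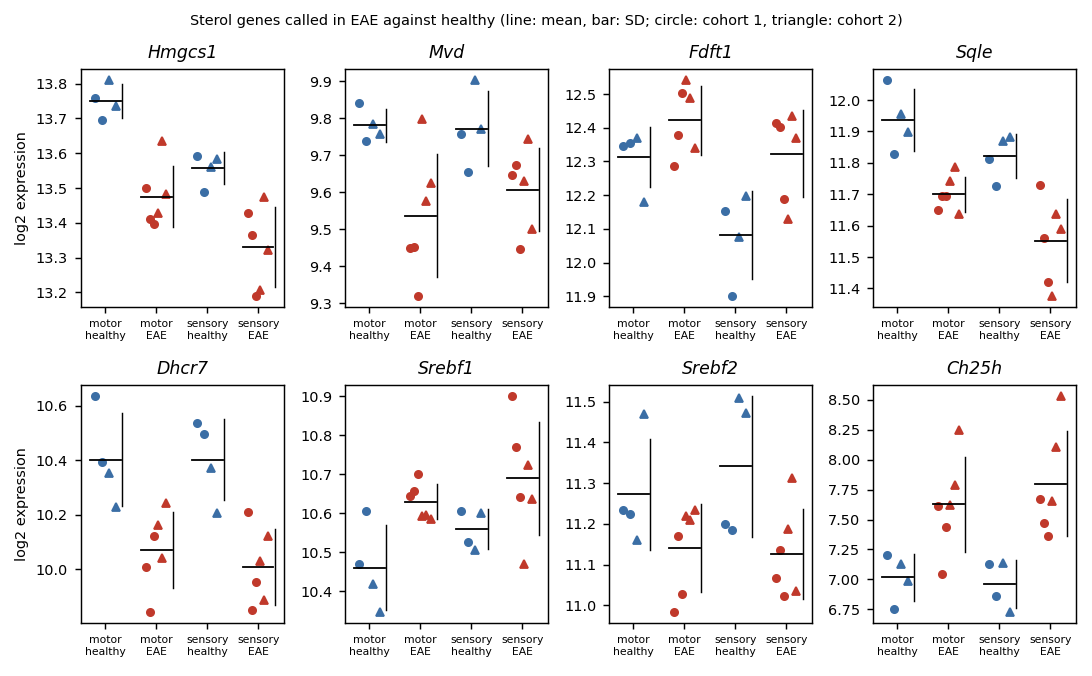
Log2 expression (y axis) of the 8 sterol genes called in EAE against healthy, for each mouse in 4 groups (x axis: motor and sensory cortex, healthy in blue, EAE in red; circles cohort 1, triangles cohort 2). Lines are group means and bars 1 SD (n = 4 healthy and 6 EAE mice). All EAE points lie below all healthy points for Hmgcs1 in both regions and for Sqle in motor cortex, and above them for Ch25h in sensory cortex.

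In the late part, from squalene to cholesterol, Sqle and Dhcr7 were lower and none of the 10 genes was called higher. Sqle, the squalene epoxidase that commits squalene to sterols, read 12.06, 11.83, 11.96 and 11.90 in healthy motor cortex and from 11.64 (median 11.69) to 11.79 in EAE, without overlap (4.19% of all genes were so separated, EAE lower). In sensory cortex it read 11.81, 11.73, 11.87 and 11.88 in healthy mice and from 11.38 (median 11.58) to 11.73 in EAE. There EAE mouse 1 reached the lowest healthy mouse. Its averaged difference was -0.25 ± 0.05 (SE, limma adjusted p = 0.012), or 83.9% of the healthy level, and of the 10 single mice left out in turn, healthy mouse 3 was the one without which it was lost (limma adjusted p = 0.0503). Taken by region the Sqle difference was -0.24 in motor cortex (limma adjusted p = 0.066) and -0.27 in sensory cortex (limma adjusted p = 0.091).

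Dhcr7, the reductase of the last step to cholesterol, read 10.64, 10.39, 10.35 and 10.23 in healthy motor cortex and from 9.84 (median 10.08) to 10.24 in EAE. In sensory cortex it read 10.54, 10.50, 10.37 and 10.21 in healthy mice and from 9.85 (median 9.99) to 10.21 in EAE. In each region the highest EAE mouse reached the level of healthy mouse 4, the lowest of the 4. The difference was -0.39 ± 0.09 in sensory cortex (SE, limma adjusted p = 0.046), -0.33 ± 0.09 in motor cortex (limma adjusted p = 0.086) and -0.36 ± 0.08 in the average (limma adjusted p = 0.022). The average corresponds to 77.8% of the healthy level, which made Dhcr7 the synthesis gene with the largest averaged decrease. The sensory call was lost without EAE mouse 2, 3, 4 or 5 or any healthy mouse (limma adjusted p 0.055 to 0.16), and the averaged call without EAE mouse 5 or healthy mouse 1, 2 or 3 (limma adjusted p 0.052 to 0.065). The Dhcr7 promoter stretch shown was taken from the 1 of its 3 windows that holds CCAAT, so its boxes follow from that choice. It carries CCAAT in both orientations, like that of Mvd, and neither stretch holds the sterol element letters.

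The other 8 late genes were not called. Cyp51, the demethylase of lanosterol, had an averaged difference of -0.25 ± 0.07 (SE, limma adjusted p = 0.052). Its other probe sets gave -0.25 and -0.03 (unadjusted p of 0.017 and 0.68 by limma). Nsdhl, a sterol dehydrogenase of the demethylation steps, had -0.17 ± 0.05 (SE, limma adjusted p = 0.067), and all 6 EAE mice lay below all 4 healthy mice in motor cortex (4.19% of all genes did). Sc5d, the desaturase ahead of Dhcr7, had -0.16 ± 0.05 (SE, limma adjusted p = 0.087) on the brightest probe set, but its other 2 probe sets gave -0.37 and -0.27, with unadjusted p of 8.2e-05 and 0.0012, and on the mean of the 3 it was called lower, at -0.26 in the average (limma adjusted p = 0.0034) and -0.32 in sensory cortex (limma adjusted p = 0.016). Msmo1, a methyl sterol oxidase, and Ebp, a sterol isomerase, were at -0.15 and -0.12. Tm7sf2, a sterol reductase, was at -0.08 (95% interval -0.23 to 0.07), Hsd17b7 at 0.02 (-0.12 to 0.17) and Lss, the cyclase that forms lanosterol, at 0.00 (-0.14 to 0.14).

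The synthesis genes were uneven among the EAE mice. In motor cortex the 3 EAE mice of cohort 1 had 17, 16 and 16 of the 17 synthesis genes below the healthy mean, with mean deviations of -0.21, -0.28 and -0.19. The 3 of cohort 2 had 9, 9 and 13, with mean deviations of -0.07, -0.05 and -0.08. The 4 healthy mice had 2, 11, 9 and 13, with deviations between -0.04 and 0.05. In motor cortex the 6 EAE mice thus all lay below the healthy mice in this mean, though the nearest values were -0.05 and -0.04. The EAE mice of the cohorts did not overlap. The share of all genes below the healthy mean was not worked out for single mice in either region. These counts therefore do not separate a shift of a whole array from one of the synthesis genes.

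**Figure D3:**
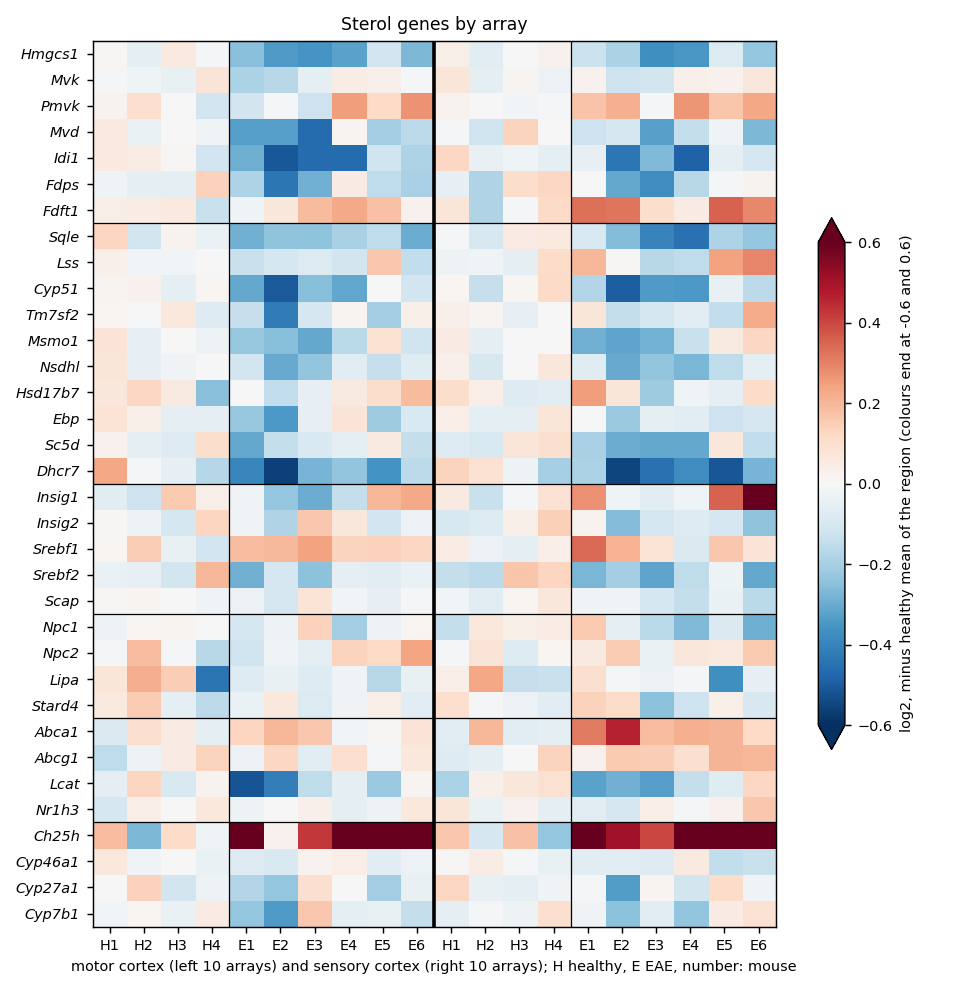
Deviation of each of the 34 sterol genes (rows, ordered by role) from the healthy mean of its region on each of the 20 arrays (columns), in log2 units, blue lower and red higher, with colours ending at -0.6 and 0.6. Blue prevails in the synthesis rows of EAE mice 1 to 3 in motor cortex and of EAE mice 2 to 4 in sensory cortex, and Ch25h is red in nearly all EAE arrays. The sensory array of EAE mouse 3 is the one that stood farthest from its group.

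In sensory cortex the order differed. EAE mice 1 to 6 had 9, 13, 16, 14, 11 and 9 of the 17 genes below the healthy mean, with mean deviations of -0.02, -0.18, -0.23, -0.18, -0.03 and -0.01, and healthy mouse 2 lay below mice 1, 5 and 6 at -0.06. The lowest of these, mouse 3, is the array that stood farthest from its group. Mouse 1 had 17 genes below in motor and 9 in sensory cortex. The median difference of the 17 genes was -0.26 in cohort 1 and -0.06 in cohort 2 in motor cortex, and -0.12 and -0.17 in sensory cortex. An interaction of condition and cohort, added after the data had been seen, called 0 genes (0%) by limma. At an unadjusted p under 0.05 it picked 4 of the 17 synthesis genes in motor cortex (4.47% of all genes) and 1 in sensory cortex (3.46%). The grades overlap with the cohorts, 2.5 to 3 in cohort 1 and 3 to 3.5 in cohort 2, so grade and cohort cannot be told apart here.

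**Figure D4:**
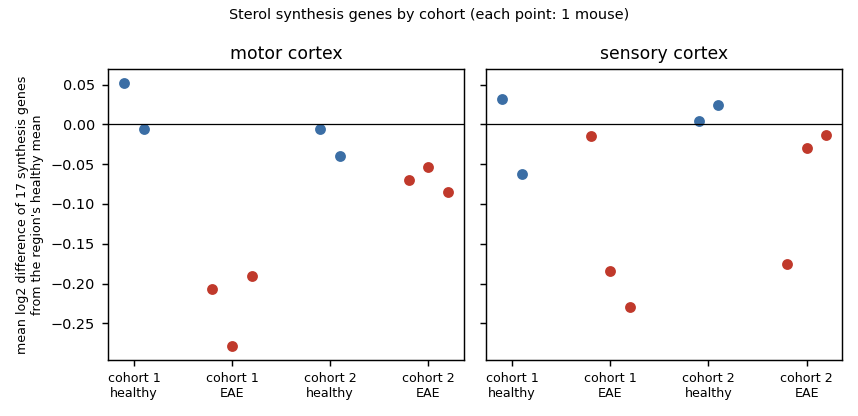
Mean log2 deviation of the 17 synthesis genes from the healthy mean of the region (y axis) for each mouse, by cohort and condition (x axis; 2 healthy and 3 EAE mice per cohort), in motor and sensory cortex. In motor cortex the 3 EAE mice of cohort 1 lie between -0.28 and -0.19 and the 3 of cohort 2 between -0.08 and -0.05, whereas in sensory cortex the cohorts overlap.

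Single calls kept their direction within each cohort, though in no cohort alone was more than 1 member called. For Hmgcs1 the averaged difference was -0.25 in cohort 1 and -0.25 in cohort 2, and for Sqle it was -0.23 and -0.27. Dhcr7 had -0.52 in cohort 1 and -0.21 in cohort 2 (unadjusted p of the interaction 0.046 by limma, adjusted over all genes not under the threshold for any gene). Ch25h had 0.45 and 1.00, and in cohort 2 alone it was called (limma adjusted p = 0.045). Without the mice that have an array on the second chip day, which leaves 2 healthy mice, none of the 8 averaged calls passed, and 6 genes of 18194 did. The differences of Hmgcs1 and Dhcr7 were then -0.24 and -0.36.

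Among the sensing and SREBP control genes Srebf1 was higher and Srebf2 was lower in the average, and the other 3 of 5 were not called. Srebf2 encodes the SREBP that drives the synthesis enzymes. It read 11.23, 11.22, 11.16 and 11.47 in healthy motor cortex and from 10.98 (median 11.19) to 11.23 in EAE. Sensory values were 11.20, 11.19, 11.51 and 11.47 in healthy mice and from 11.02 (median 11.10) to 11.31 in EAE. The groups overlapped in both regions. Its difference was -0.17 ± 0.05 (SE, limma adjusted p = 0.046), and the call was lost without any mouse other than EAE mouse 2 (limma adjusted p 0.066 to 0.16). The second Srebf2 probe set gave -0.29 with an unadjusted p of 0.0029.

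Srebf1, which encodes the SREBP proteins of fatty acid synthesis and is itself an LXR target, read 10.47, 10.61, 10.42 and 10.35 in healthy motor cortex and from 10.59 (median 10.62) to 10.70 in EAE. Sensory cortex gave 10.61, 10.53, 10.51 and 10.60 in healthy mice and from 10.47 (median 10.68) to 10.90 in EAE. Healthy mouse 2 in motor cortex and EAE mouse 4 in sensory cortex broke the separation. Its difference was 0.15 ± 0.04 (SE, limma adjusted p = 0.043), and the call was kept without EAE mouse 3 or 4 and lost without any other mouse (limma adjusted p 0.063 to 0.11). Scap, the escort, was at -0.05 (95% interval -0.13 to 0.02) and Insig2 at -0.07 (-0.21 to 0.06). Insig1 varied most among these 5 genes in EAE: in sensory cortex it read from 11.35 (median 11.54) to 12.09 in the 6 EAE mice and from 11.28 to 11.50 in the healthy mice. Its averaged difference was 0.08 (95% interval -0.14 to 0.29).

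None of the 4 measured genes of lysosomal release and transfer was called in any comparison. Npc1 and Npc2, which pass cholesterol out of the lysosome, were at -0.08 (95% interval -0.19 to 0.04) and 0.06 (-0.07 to 0.19) in the average. Lipa, the lysosomal acid lipase that frees cholesterol from its esters, was at -0.07 (-0.23 to 0.10). Its other probe sets gave -0.06 and, on the dimmest, -0.16 (unadjusted p of 0.42 and 0.021 by limma). Stard4, a cytosolic sterol carrier and SREBP target, was at -0.02 (-0.15 to 0.10) on the brightest probe set, while the dimmest of its 3 probe sets gave -0.26 with an unadjusted p of 0.0055. The intervals of the 4 averaged differences lay between -0.23 and 0.19.

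None of the 4 measured genes of efflux, lipoprotein esterification and LXR was called in EAE. Abca1, the exporter of cholesterol to lipid-poor apolipoproteins, read 10.87, 11.06, 11.01 and 10.90 in healthy motor cortex and from 10.94 (median 11.06) to 11.16 in EAE. In sensory cortex it read 11.04, 11.30, 11.03 and 11.04 in healthy mice and from 11.22 (median 11.31) to 11.56 in EAE. In sensory cortex the 6 EAE mice lay above 3 of the healthy mice, and healthy mouse 2 lay among them. The differences were 0.25 ± 0.07 in sensory cortex (SE, limma adjusted p = 0.088) and 0.17 ± 0.05 in the average (limma adjusted p = 0.067), and the gene's 2 dimmer probe sets had averaged estimates below 0, at -0.03 and -0.18, so that the mean of the 3 was -0.01. Abcg1, which exports to mature lipoprotein, was at 0.08 (95% interval -0.02 to 0.18), and its other probe set gave 0.12 with an unadjusted p of 0.017 by limma. Lcat, which esterifies cholesterol on lipoproteins, was at -0.20 ± 0.07 (SE, limma adjusted p = 0.10). Nr1h3, the gene of the receptor LXR alpha, was at 0.00 (95% interval -0.09 to 0.09).

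Ch25h, the enzyme that makes the side-chain oxysterol which holds SREBP in the endoplasmic reticulum and is further turned into a ligand for immune cell migration, had the largest difference of all 34 genes. It was measured by 1 probe set, with a mean of 7.42 over the arrays, and is among the dimmest 25% of genes. In motor cortex it read 7.20, 6.75, 7.13 and 6.99 in healthy mice and 7.62, 7.04, 7.44, 7.62, 7.79 and 8.25 in EAE mice 1 to 6. In sensory cortex it read 7.12, 6.86, 7.14 and 6.73 in healthy mice and 7.67, 7.47, 7.36, 7.65, 8.11 and 8.53 in EAE mice 1 to 6. In sensory cortex every EAE mouse lay above every healthy mouse (2.45% of all genes did), and in motor cortex only EAE mouse 2 did not. Mice 5 and 6, both of cohort 2 and grade 3.5, had the highest values in both regions. Mouse 1, of grade 2.5, lay above mouse 2, of grade 3, in both. Whether Ch25h goes with grade was not tested, and grade and cohort cannot be told apart here.

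The Ch25h difference was 0.84 ± 0.19 in sensory cortex (SE, limma adjusted p = 0.048), or 1.78-fold, and 0.61 ± 0.15 in motor cortex (limma adjusted p = 0.057), or 1.53-fold. In the average it was 0.72 ± 0.16 (limma adjusted p = 0.023), or 1.65-fold. The sensory call was kept without EAE mouse 1 or 3 and lost without any other mouse (limma adjusted p 0.052 to 0.17), with a difference between 0.68 and 0.96. The averaged call was lost without EAE mouse 5 or healthy mouse 2, 3 or 4 (limma adjusted p 0.052 to 0.090). Beside it the mean of the 6 neutrophil and monocyte markers was 7.95 to 8.43 in the motor cortex of EAE mice and 7.32 to 7.45 in that of healthy mice, and 7.75 to 8.99 against 7.26 to 7.45 in sensory cortex. Their part in the Ch25h difference was not tested. The other 3 oxysterol enzymes were not called. Cyp46a1, the neuronal hydroxylase by which the brain disposes of cholesterol, was at -0.05 (95% interval -0.15 to 0.04), Cyp27a1 at -0.08 (-0.22 to 0.06) and Cyp7b1, which acts on the products of Ch25h and Cyp27a1, at -0.09 (-0.23 to 0.05).

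Whether the EAE difference itself differed between the regions was tested on motor minus sensory of each mouse. No member was called, and limma called 0 of the 18194 genes (0%). At an unadjusted p under 0.05 it picked 1 member, Insig1, and 422 genes in all (2.32%). Insig1 was at -0.04 in motor and 0.20 in sensory cortex, a difference of -0.24 ± 0.08 (SE, unadjusted p = 0.015 by limma). For Hmgcs1 the regional difference was -0.05 (95% interval -0.19 to 0.09), for Dhcr7 0.06 (-0.12 to 0.24) and for Ch25h -0.23 (-0.47 to 0.02). That Hmgcs1 was called in motor cortex alone, and Dhcr7 and Ch25h in sensory cortex alone, is therefore no measured difference between regions.

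The regions themselves were compared within the 10 mice, with each mouse as a block. Here 6 of the 34 members were called (17.6%, against 13.2% of all genes). Hmgcs1, Fdps and Hsd17b7, 3 of the 17 synthesis genes, were higher in motor cortex, where 7.67% of all genes were. Abca1, Abcg1 and Lcat were higher in sensory cortex, where 5.56% of all genes were. They are 3 of the 4 measured genes of efflux, lipoprotein esterification and LXR. The share of members called was near that of all genes, and a difference by role was not tested. Of the 17 synthesis genes 15 had estimates above 0 in motor cortex (59.1% of all genes did), with a median of 0.09 against 0.02 over all genes, and the 10 late genes all did. Under quantile normalization, median centring and the mean of all probe sets the synthesis count was 15, 15 and 14. The 4 genes of efflux, lipoprotein esterification and LXR were below 0 in all 3 settings.

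Hmgcs1 was higher in motor cortex in 10 of 10 mice, by 0.05 to 0.25, with a mean of 0.16 ± 0.03 (SE, limma adjusted p = 0.0017). Fdps was higher in 9 of 10 mice, by 0.17 ± 0.05 (SE, limma adjusted p = 0.020), and the call was lost without healthy mouse 2 (limma adjusted p = 0.054). On the mean of all its probe sets the Fdps difference was 0.04 and was not called (limma adjusted p = 0.79). That mean takes in 1 other probe set, which is near the floor: it averaged 4.35, where the smallest value on any array was 3.79, against 11.65 for the one used. In healthy mice 1 to 4 Fdps read 11.83, 11.80, 11.80 and 12.00 in motor and 11.60, 11.47, 11.75 and 11.77 in sensory cortex, and in EAE mice it ran from 11.43 (median 11.67) to 11.91 in motor and from 11.27 (median 11.56) to 11.67 in sensory cortex. Hsd17b7, the keto reductase of the demethylation steps, was higher in 9 of 10 mice, by 0.25 ± 0.05 (SE, limma adjusted p = 0.0035). It read 10.87, 10.93, 10.86 and 10.55 in the motor and 10.66, 10.60, 10.48 and 10.49 in the sensory cortex of healthy mice, and from 10.66 (median 10.83) to 10.99 in the motor and from 10.34 (median 10.58) to 10.81 in the sensory cortex of EAE mice. Its regional difference was 0.25 in healthy and 0.25 in EAE mice (their difference 0.00, 95% interval -0.22 to 0.23). On the mean of all its probe sets the Hsd17b7 difference was 0.10, still called (limma adjusted p = 0.013). Hmgcs1 and Hsd17b7 kept their calls without any single mouse. Without the second chip day Hmgcs1, Hsd17b7 and Abca1 were called and Fdps, Abcg1 and Lcat were not, and with no replicate block Lcat was not. With the 4 healthy mice alone Hmgcs1, Lss and Hsd17b7 were called, and with the 6 EAE mice alone only Abca1 was. Sqle and Cyp51 missed the threshold narrowly, at 0.13 and 0.11 (limma adjusted p = 0.0504 and 0.05005), and both were called under quantile normalization and under median centring.

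**Figure D5:**
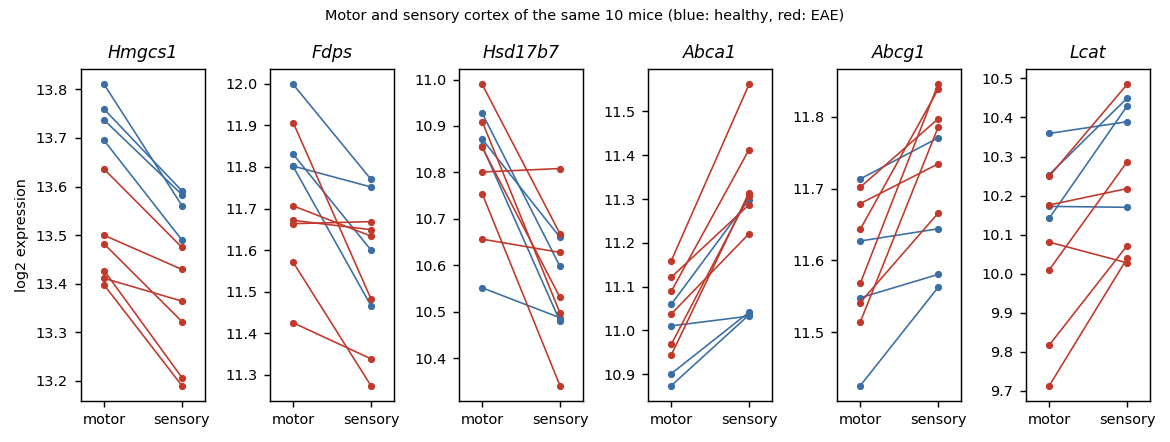
Log2 expression (y axis) in the motor and the sensory cortex (x axis) of the same mouse, joined by a line, for the 6 sterol genes called between regions (blue 4 healthy mice, red 6 EAE mice). Lines fall from motor to sensory cortex in 10 of 10 mice for Hmgcs1 and rise in 10 of 10 for Abca1 and Abcg1.

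Abca1 was lower in motor cortex in 10 of 10 mice, with a mean difference of -0.24 ± 0.04 (SE, limma adjusted p = 0.0012). This was the smallest adjusted p among the members, and the call was kept without any single mouse. The regional difference was -0.14 in the 4 healthy mice and -0.30 in the 6 EAE mice, and these differed by -0.16 (95% interval -0.32 to 0.01). With healthy mice alone Abca1 was not called (limma adjusted p = 0.17). Abcg1 was lower there in 10 of 10 mice, with -0.13 ± 0.03 (SE, limma adjusted p = 0.025), and lost the call without EAE mouse 5 or 6 or healthy mouse 1 (limma adjusted p 0.053 to 0.066). It read 11.43, 11.55, 11.63 and 11.71 in healthy motor and 11.56, 11.58, 11.64 and 11.77 in healthy sensory cortex, and in EAE from 11.51 (median 11.61) to 11.70 and from 11.67 (median 11.79) to 11.85. Lcat was lower there in 8 of 10 mice, with -0.16 ± 0.04 (SE, limma adjusted p = 0.026). It read 10.17, 10.36, 10.14 and 10.25 in healthy motor and 10.17, 10.39, 10.43 and 10.45 in healthy sensory cortex, and in EAE from 9.71 (median 10.05) to 10.25 and from 10.03 (median 10.14) to 10.48. Its call was lost without EAE mouse 1, 2, 5 or 6 or healthy mouse 3 or 4 (limma adjusted p 0.054 to 0.068). Beside these differences 4 of 9 astrocyte markers (Gjb6, Aldh1l1, Gfap and S100b) were called lower in motor cortex (5.56% of all genes were), with a median of -0.12 over the 9. The mean of the 9 ran from 12.3 to 12.5 in motor and from 12.4 to 12.7 in sensory cortex. Markers of other cells were called lower there too: Dcn and Igf2 of 5 meningeal markers (median -0.20), Pecam1 and Esam of 9 endothelial markers (median -0.07), and Plac8. Of the neuron markers Cux2, Slc32a1 and Pvalb were lower and Neurod6, Sst and Vip higher. Pdgfra, of the oligodendrocyte precursor markers, was higher. The part of any of these cells in the levels of Abca1, Abcg1 and Lcat was not tested. The oxysterol enzymes were not called between regions. Cyp7b1 came nearest at -0.14 ± 0.05 (SE, limma adjusted p = 0.056) and was called without EAE mouse 3.

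Other genes of the pathway, from lists that hold none of the 37, moved in 1 direction where they were called in EAE by the main fit. Unlike the members, they were not followed through the alternative settings or with mice left out. Over all genes the averaged calls fell from 1431 to 6 without the mice of the second chip day. After quantile normalization 603 were lower and 450 higher, against 1026 and 405. Of 19 measured genes of sterol synthesis and SREBP-regulated lipid synthesis, 3 were lower in the average and 0 higher. Over all genes 5.64% were called lower and 2.23% higher. The 3 were Acss2, an acetyl-CoA synthetase, at -0.18, Elovl6, a fatty acid elongase, at -0.23, and Fads2, a fatty acid desaturase, at -0.23. In motor cortex 1 of the 19 was called, Fads2, lower at -0.26 ± 0.06 (SE, limma adjusted p = 0.048), where 1.74% of all genes were called lower. Of 29 measured genes of sterol uptake, transfer, efflux and oxysterol handling, 5 were lower in the average and 0 higher (5.64% of all genes were lower). Vldlr and Lrp8, lipoprotein receptors that bind apolipoprotein E and reelin, were lower, at -0.27 and -0.30. Pltp, which transfers phospholipid between lipoproteins, was lower, at -0.36 ± 0.08 (SE, limma adjusted p = 0.021), Osbpl5, an oxysterol-binding protein relative, at -0.34 and Smpdl3a, a phosphodiesterase known as an LXR target, at -0.20. Taken by region, 2 of the 29 were called in motor cortex, Lrp8 and Pltp, both lower (1.74% of all genes were called lower). In sensory cortex 2 of the 29 were called, Vldlr and Osbpl5, both lower (1.51% of all genes were). The lists' averaged medians were -0.06 and -0.06, against 0.00 over all genes. Between regions 13.2% of all genes were called. Of the first list 2 of 19 were (10.5%), Tmem97 and Aacs, both higher in motor cortex. Of the second 9 of 29 were (31%). Lrp8, Sorl1, Scarb1, Mylip, Smpdl3a and Osbp were higher in motor cortex, and Lrp1, Osbpl5 and Cyp39a1 were lower. Cyp39a1, an oxysterol hydroxylase, was at -2.05 ± 0.11 (SE, limma adjusted p = 9.8e-08).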

How the data were processed

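Cortical RNA of 10 mice was measured on 20 Affymetrix arrays. The values are log2 expression values as deposited by the authors, with RMA and Partek named in the submitters' processing notes. Other array processing settings are not given in the sources used here. Probe sets were named through GEO's platform annotation: of 45101, 34958 had 1 symbol, 932 several and 9211 none, leaving 18194 genes on their brightest probe set. All 34 measured members matched RefSeq by Entrez identifier under the same symbol. Two-sided moderated tests came from limma 3.58.1 under R 4.3.3. EAE against healthy was adjusted for cohort, the regions were compared with mouse as a block, and p-values were adjusted by Benjamini-Hochberg over all genes in each of 5 comparisons. The fits were also run on simulated data with independent noise on each array and no effect of cohort, mouse or chip day. Those runs do not bear on how such effects move the calls. The animal is the replicate, and their number limits precision. All measured members are named. Where a member was called, healthy mice are given singly and the 6 EAE mice by lowest, median and highest (singly for Ch25h). Other listed genes are named only where called. Motor and sensory arrays pair by animal. EAE and healthy mice of the same number are different animals. Members, lists and tests were chosen with earlier results of these data known. Alternatives varied cohort, scaling, probe sets, dim genes, prior, mice and chip day.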

Additional observations from a re-analysis of the deposited data

Results flagged for a closer look

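In 136 sets of values (34 genes in 4 groups) 1 mouse stood apart from its group by Dixon's criterion in 10, or 7.35%, where chance gives about 1 in 20. Healthy motor cortex held 3 of them: Fdps in mouse 4 at 12.00 (next 11.83), Fdft1 in mouse 4 at 12.18 (next 12.35) and Cyp51 in mouse 3 at 10.52 (next 10.59). Healthy sensory cortex held 3: Idi1 in mouse 1 at 11.55 (next 11.40), Npc1 in mouse 1 at 9.66 (next 9.84) and Abca1 in mouse 2 at 11.30 (next 11.04). The motor array of healthy mouse 4 and the sensory array of healthy mouse 1, which hold 4 of these 6 values, are the arrays of the second chip day. In EAE, Lss in mouse 5 was high at 10.21 in motor cortex (next 9.96). Lipa in mouse 5 was low in both regions, at 10.21 (next 10.30) in motor and 9.96 (next 10.28) in sensory cortex. Pmvk in mouse 3 was low at 10.28 in sensory cortex (next 10.45), on the array that stood farthest from its group.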

How the results depend on the processing

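All 17 calls of members kept their sign under every alternative in which the gene was tested, and no called value reversed. Ch25h is among the dimmest 25% of genes, so it was not tested where these were left out. Of the uncalled values 73 changed sign somewhere. With 4 healthy mice the number of calls was unsteady. Members called in motor cortex, 1 in the main analysis, numbered 3 without the cohort covariate, 4 with the mouse number as a replicate block, 2 after quantile normalization, 0 with median-centred arrays, 3 with the dimmest 25% of genes left out, 0 on the mean of all probe sets, 4 with an intensity trend and robust prior, 0 in cohort 1 or 2 alone or without the second chip day, and 0 to 2 without 1 mouse. In sensory cortex, 2 in the main analysis, they numbered 1, 0 with the replicate block, 1, 0, 1, 3 and 5 under the same settings in that order, 0 in either cohort or without the second chip day, and 0 to 3 without 1 mouse. In the average, 8 in the main analysis, they numbered 5 without the cohort covariate, 11 with the replicate block, 6 to 12 under the other settings, 0 in cohort 1, 1 in cohort 2, 0 without the second chip day, and 0 to 10 without 1 mouse. Between regions, 6 in the main analysis, they numbered 11 after quantile normalization, 5 with no replicate block, 3 in healthy mice, 1 in EAE mice, 3 without the second chip day and 4 to 8 without 1 mouse. The regional difference of the EAE effect gave 0 throughout. Without EAE mouse 3 (added after seeing the data) the counts were 2 in sensory cortex, 7 in the average and 7 between regions. Over all genes the counts ran from 145 to 580 in motor cortex (410 in the main analysis, 9 and 16 in single cohorts), from 0 to 1009 in sensory cortex (438; 5 with the replicate block), from 0 to 1813 in the average (1431) and from 728 to 3050 between regions (2408). EAE and healthy mice of the same number are different animals; their deviations correlated at 0.22, 0.29, 0.02 and 0.13 in motor and at -0.25, 0.40, 0.08 and -0.24 in sensory cortex, so the numbers do not pair them.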

Other observations

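The members' spread within groups was small, with median SDs over the 34 genes of 0.09 and 0.08 in healthy and 0.12 and 0.14 in EAE motor and sensory cortex. Ch25h had the largest SD in 3 of the 4 groups, 0.40 and 0.44 in EAE motor and sensory cortex and 0.20 in healthy sensory cortex, and Lipa had the largest in healthy motor cortex, 0.30. Of 38 further probe sets of 21 members, 26 had the same sign as the brightest in the average, 11 of them with an unadjusted p under 0.05 by limma. A dimmer probe set of Lss, at -0.13, was the single further probe set of opposite sign with an unadjusted p under 0.05.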
